A study of Mus musculus with 51 samples.

Results

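Control astrocytes and control microglia of the mouse prefrontal cortex were compared in 16 of the 51 libraries of the series, 8 astrocyte and 8 microglia libraries from the same 8 of 17 mice. Members were all libraries whose label gives the air control and either of the bead preparations, and the libraries of a mouse were paired by the number that ends the label. The mice were adult male C57BL/6J mice that sat in chambers with room air for 16 h per day over 4 weekly cycles. Controls also received pyrazole, an inhibitor of alcohol dehydrogenase, at 1 mmol/kg in saline, so no group here is an untreated brain. Tissue was digested with papain and cleared of myelin on 25% Percoll, and astrocytes were held on beads against ACSA2, an epitope of the sodium pump subunit encoded by Atp1b2. Microglia were then held on beads against CD11b, encoded by Itgam, from the cells that had not bound ACSA2. Bead preparations are enriched fractions and not sorted pure cells, and in such bulk RNA a larger number of cells of a type and more RNA per cell cannot be told apart. Mice given ethanol vapor (chronic intermittent ethanol, CIE, 9 mice with the same pyrazole) served to measure the same difference in libraries that the control comparison did not use. Total homogenate, 5% of the suspension of each control mouse, served as a reference for cell type markers.

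Astrocytes are the glial cells that clear glutamate and potassium from around synapses, couple to each other through gap junctions, store glycogen and supply neurons with lactate and lipids. Microglia are the macrophages of the brain parenchyma. They arise from the yolk sac, depend on signaling through the receptor Csf1r, survey their surroundings through purine receptors and carry the pattern recognition, complement and Fc receptors of the myeloid lineage. The contrast therefore sets a neuroectodermal cell beside a myeloid cell taken from the same dissociated tissue.

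Counts assigned to genes ranged from 2082289 to 7189353 in astrocytes and from 1025527 to 6026453 in microglia, and astrocyte libraries were the deeper ones in 6 of 8 mice (exact paired permutation test, two-sided p = 0.0625). Astrocyte libraries held between 14794 and 16024 genes with at least 1 count and microglia libraries between 13504 and 15406, with more genes in the astrocyte library of 8 of 8 mice (exact paired permutation test, p = 0.0078, the smallest p that 256 sign changes can give). The first principal component separated the preparations and held 81.5% of the variance. On the second component, which held 3.89%, the microglia library of mouse 22 stood apart at -56.2, where the other 15 libraries lay between -15.4 and 26.5. It was also the shallowest library, and counts without this mouse are given beside the main counts. In microglia of mice 03, 05 and 19 the 20 most abundant genes took 23.1%, 19.3% and 18.2% of counts. They took 7.91% to 9.87% in the other microglia libraries. Scaling factors for composition were 0.76, 0.81 and 0.86 in these mice and 0.95 to 1.00 in the others. Mice were left out only 1 at a time.

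The antigens and markers followed the labels in every library. Atp1b2 (chr11:69599736-69605942, minus strand, GRCm38) had a scaled abundance (counts per unit of library size, CPM) of 1102 CPM in the lowest, 1469 in the median and 1933 in the highest astrocyte library. In microglia its level was 30.2, 53.4 and 103 CPM, so the groups did not overlap. Aqp4, the water channel of astrocyte endfeet, had 361, 517 and 712 CPM in astrocytes and 3.41, 6.52 and 16.0 CPM in microglia, a log2 difference of 6.20 (standard error 0.25, adjusted p = 3.96e-10, edgeR quasi-likelihood test with mouse as a block and Benjamini-Hochberg adjustment over all genes tested). Gja1, the main astrocytic connexin, had 1061, 1393 and 1911 CPM in astrocytes and 10.8, 15.6 and 50.8 CPM in microglia, a log2 difference of 6.08 (standard error 0.292). Each of these was higher in the astrocyte library of 8 of 8 mice.

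Itgam (chr7:128062640-128118491, plus strand) had 73.7, 196.5 and 359 CPM in the lowest, median and highest astrocyte library. In microglia it had 1056, 1732 and 2058 CPM, a log2 difference of -3.08 (standard error 0.314) for astrocytes minus microglia. Csf1r, the receptor for the survival factors Csf1 and Il34, had 437, 1082 and 1888 CPM in astrocytes and 7337, 8333 and 12042 CPM in microglia. For Cx3cr1, the fractalkine receptor, the levels were 190, 544 and 928 CPM in astrocytes and 3431, 4176 and 5833 CPM in microglia. Microglial markers were thus lower in astrocyte libraries in 8 of 8 mice and did not overlap, yet none of them was near 0 there, in contrast to Aqp4 in microglia.

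**Figure D1:**
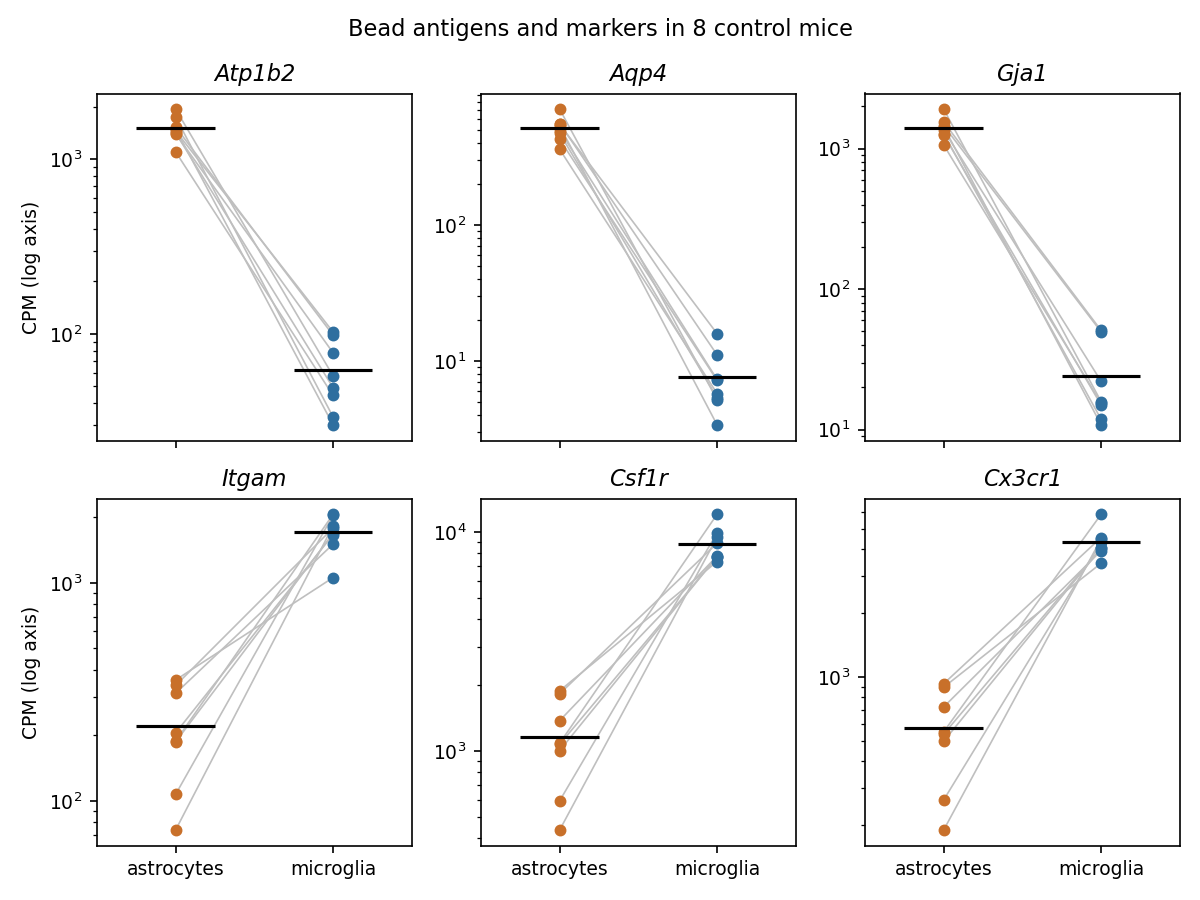
CPM (log axis) of the bead antigens Atp1b2 and Itgam and of 4 markers in the astrocyte and microglia libraries of 8 control mice. Points are libraries, grey lines join the libraries of a mouse and black bars are means. In astrocyte libraries Cx3cr1 lies between 190 and 928 CPM, whereas Aqp4 in microglia libraries lies between 3.41 and 16.0 CPM.

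Other cell types were measured with marker lists. Oligodendrocyte markers were higher in astrocyte libraries for 12 of 12 genes, with a median log2 difference of 2.32, none of the 12 at 0 in either preparation, and a summed level of 18476 to 25852 CPM against 2379 to 7734 CPM in microglia. Precursor markers of that lineage were higher in astrocyte libraries for 7 of 7 tested of 10 genes (median 2.44). Endothelial markers were higher there for 10 of 12 genes, none of them by more than 2-fold (median 0.84, summed level 1284 to 2959 CPM against 386 to 2437 CPM), and mural cell markers for 9 of 9 (median 1.04, summed level 1060 to 1647 CPM against 216 to 1216 CPM). The 2 tested of 6 ependymal markers were higher in astrocyte libraries (median 1.66), and among 13 tested of 23 neuron markers 3 were higher and 2 lower. Neuron markers summed to 260 to 715 CPM in astrocyte and 147 to 635 CPM in microglia libraries, against 12695 to 16788 CPM in homogenate on a scale fitted to all 3 preparations. On that scale oligodendrocyte markers summed to 18956 to 25773 CPM in astrocyte libraries, against 1021 to 3717 CPM in homogenate. Endothelial markers summed to 1303 to 2940 CPM against 378 to 611 CPM, and mature astrocyte genes to 27725 to 42878 CPM against 12928 to 18106 CPM. Homeostatic microglia genes summed to 3417 to 12648 CPM in astrocyte libraries, against 1335 to 1923 CPM in homogenate. Mural markers summed to 1076 to 1614 CPM against 150 to 412 CPM. Border macrophage markers summed to 49.6 to 207 CPM against 7.48 to 46.3 CPM. Astrocyte libraries were thus raised over homogenate for oligodendrocyte, endothelial, mural and macrophage markers and for microglia genes, as well as for astrocyte genes. They were lower for neuron markers. In the other direction, border macrophage markers were higher in microglia for 8 of 8 genes (median -1.66, summed level 189 to 647 CPM against 50.9 to 208 CPM), and 2 of 2 tested of 6 monocyte and 7 of 7 tested of 11 neutrophil markers were higher as well. On the scale of all 3 preparations neutrophil markers summed to 580 to 1234 CPM in microglia libraries, against 12.8 to 40.2 CPM in homogenate. Of 8 lymphocyte markers only Cd79b passed the filter and was higher in microglia (log2 difference -2.90), and none of 5 red blood cell genes passed. The part of these cells in the results below was not tested.

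At an adjusted p under 0.05, 4513 of 12057 genes were higher in astrocytes (37.4%) and 4224 were higher in microglia (35%). With total counts as the scale, without correction for composition, the split was 5611 against 3061, and the median log2 difference over all genes moved up by 0.26. Since most genes differed, the stricter test of a difference above 2-fold was used to read the lists. It called 2209 genes higher in astrocytes (18.3%) and 1586 higher in microglia (13.2%). Without mouse 22 these counts were 2226 and 1621. The shares of all genes on each side, by either test, are the background for every list count above and below. The median log2 difference over all genes tested was 0.03, and for 5251 genes (43.6%) the 95% interval of the difference lay within 2-fold.

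The sizes of the differences were distributed unlike each other on either side. Among the genes more than 2-fold higher in astrocytes with at least 10 CPM there, 317 of 1908 had a log2 difference above 4 and 168 had one above 5. On the microglia side 6 of 1517 genes lay beyond 4. Between 2.8 and 3.3 lay 290 microglia genes, and beyond 3.3 only 15. Homeostatic microglia genes sat at this edge. All 30 were higher in microglia, 29 by more than 2-fold, with a median of -3.06 and quartiles of -3.11 and -2.97. The log2 difference was -3.0 for the ADP receptor P2ry12 and -3.18 for the lipid receptor Trem2.

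**Figure D2:**
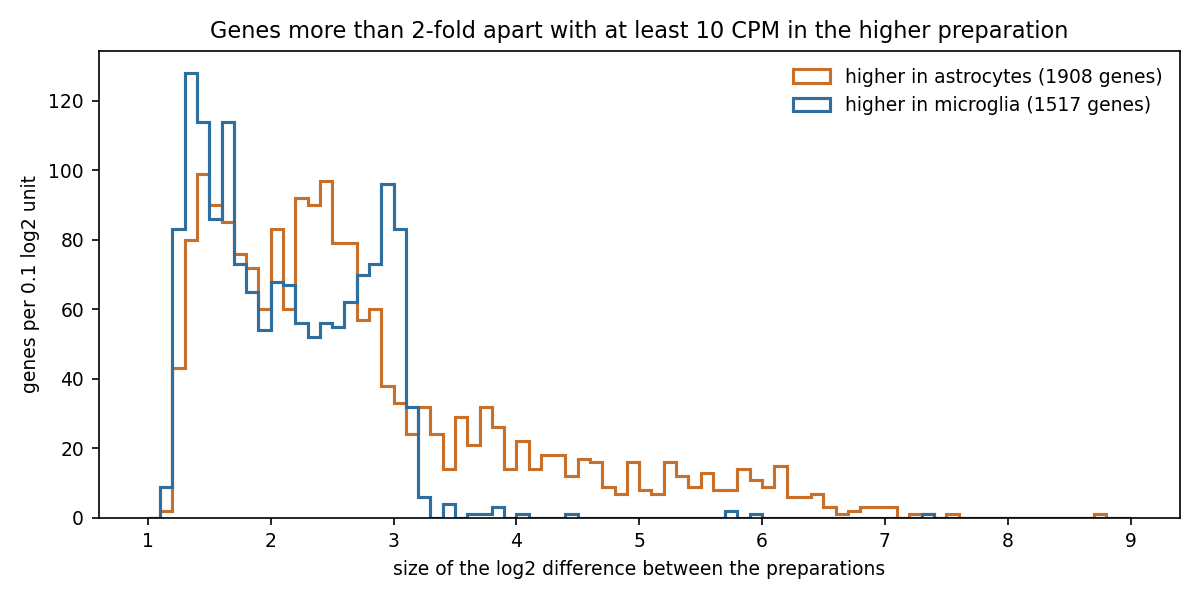
Size of the log2 difference (x axis, bins of 0.1) against the number of genes per bin, for genes more than 2-fold apart with at least 10 CPM in the higher preparation. Genes higher in microglia (1517) end near 3.3 with 15 beyond, whereas genes higher in astrocytes (1908) include 168 beyond 5.

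The level of homeostatic microglia genes in the astrocyte library was also expressed as a share of the level in the microglia library of the same mouse, and this share differed between mice. The median share over the 30 genes was 4.97% in mouse 05, 7.62% in mouse 03 and 9.96% in mouse 22. It was 12.1% in mouse 36, 13.7% in mouse 37, 16.3% in mouse 35, 20.0% in mouse 19 and 21.3% in mouse 20. Cx3cr1 and Csf1r, taken by themselves, gave shares within these mice of 4.25% and 4.61% at the lowest and 26% and 25.7% at the highest. The reverse share, that of 30 mature astrocyte genes in microglia libraries, had a median of 1.16% in mouse 37 and 6.57% in mouse 35 at its ends. Over all mice, Cx3cr1 in astrocytes had 13.2% of its microglia level and some members had more. Mertk, a receptor for the engulfment of dying cells, had 44.8% of its microglia level in astrocytes (380 ± 66.1 against 848 ± 163 CPM, SD, n = 8), the transcription factor Sall1 21.3%, the matrix protein Sparc 19.5% and the integrin Itgb5 17.7%.

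**Figure D3:**
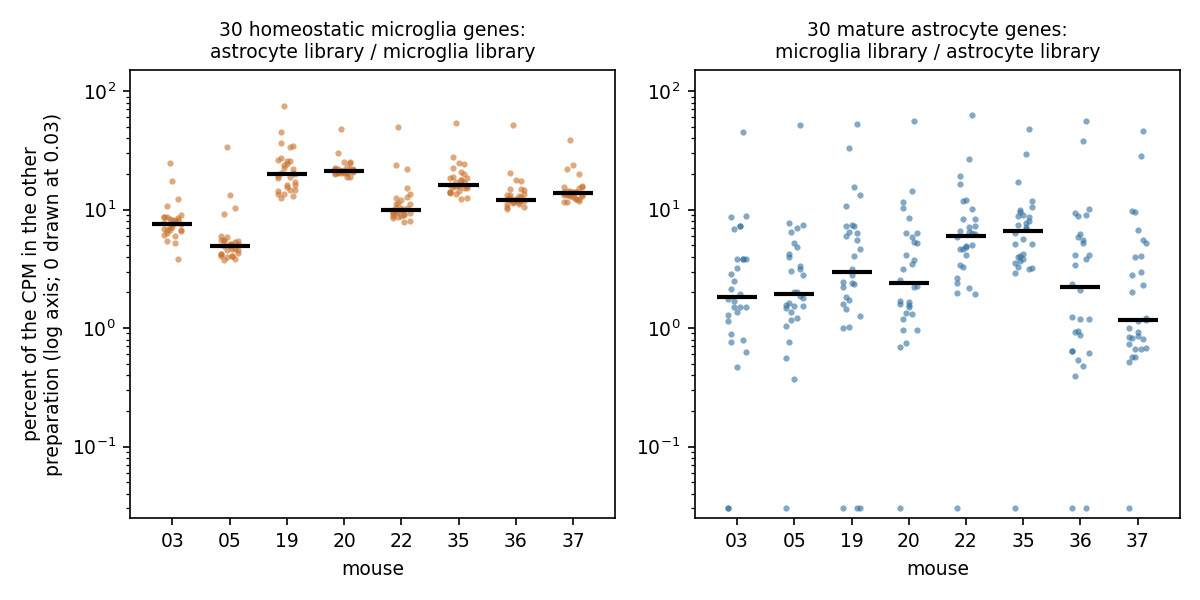
Left, CPM of 30 homeostatic microglia genes in the astrocyte library as a percent of the microglia library of the same mouse. Right, CPM of 30 mature astrocyte genes in the microglia library as a percent of the astrocyte library. Points are genes, black bars are medians, the axis is logarithmic and a 0 is drawn at 0.03. Medians run from 4.97% to 21.3% on the left and from 1.16% to 6.57% on the right.

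Mature astrocyte genes were higher in astrocytes for 30 of 30 members, 29 by more than 2-fold, with a median of 5.42, which does not depend on the size taken for Agt, a member with no count in microglia. The exception to the stricter test was Glul, glutamine synthetase, which had 3945, 4657 and 6048 CPM in the lowest, median and highest astrocyte library. Its level in microglia was 2099, 2408 and 2961 CPM. The log2 difference of Glul was 0.94 (standard error 0.144, adjusted p = 4.49e-05), and it was 0.83 (standard error 0.108) in the CIE mice.

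By size, the genes furthest apart toward astrocytes were Agt, Crb2, Hapln1, Ttll8, Ppp1r3g, Otx1, Bmpr1b, Nat8, Frem1, Slc7a10, Elovl2, Gabrg1, Acat3, Wnt7a and Emx2os. Agt, the angiotensin precursor, had between 7.86 and 24.2 CPM in astrocytes and no count in any microglia library, which makes it at least 84.7-fold higher in astrocytes against a floor of 3 counts over the 8 microglia libraries. Crb2, an apical polarity protein, had 1 count in all microglia libraries together, a pooled ratio of 297 with a 95% exact interval of 53.2 to 11759 that covers counting error only. The homeobox gene Otx1 had 3 counts there, a pooled ratio of 159 (54.4 to 774). Ttll8 and Nat8 had 1 and Frem1 and Emx2os had 2, and no fitted size is given for them. Hapln1, a link protein of the perineuronal matrix, had 78.4 to 154 CPM in astrocytes and 0.227 to 1.93 CPM in microglia (log2 difference 7.34, standard error 0.219). Emx2os is antisense to Emx2, and the strand setting of the counting is not stated, so reads of the pair cannot be told apart.

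Toward microglia the furthest genes included Ltf, S100a8, Ngp, S100a9, Mmp9, Cytip, H2-Eb1, H2-Ab1, Ccr2, Itgal, H2-Aa, Fam167b, Gp9 and Cd74. The first 5 are granule and secreted proteins of neutrophils. Ltf, lactoferrin, had 13, 25.7 and 47.5 CPM in the lowest, median and highest microglia library and between 0 and 0.776 CPM in astrocytes, a log2 difference of -7.32 (standard error 0.409). S100a8 had 9.17, 22.6 and 37.8 CPM in microglia and between 0 and 0.877 CPM in astrocytes (log2 difference -5.99, standard error 0.315). Ccr2, the chemokine receptor of blood monocytes, had 5.88 to 14 CPM in microglia and 0 to 1.26 CPM in astrocytes. Their levels in microglia libraries were far below that of Cx3cr1. As a share of the microglia level, astrocyte libraries held 0.513% for Ltf, 1.52% for S100a8 and 5.72% for Ccr2, against 13.2% for Cx3cr1.

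MHC class II genes formed the next group. Cd74, the invariant chain, had 159, 236 and 438 CPM in microglia and 10.5, 19.5 and 48.6 CPM in astrocytes. H2-Ab1 had 49.1, 64.8 and 126 CPM against 1.26, 3.96 and 12.1 CPM, and H2-Eb1 had 38.9, 55.2 and 103 CPM against 2.59, 3.47 and 8.40 CPM. Their astrocyte share was 9.40%, 7.30% and 6.76% of the microglia level. The highest microglia value of all 3 genes came from mouse 19. That library also had the highest summed monocyte (37.6 CPM, next 35.7), neutrophil (1208, next 1098) and lymphocyte markers (32.8, next 19.4). Border macrophage markers were highest in mouse 05 (647 CPM). The part of these cells in the class II levels was not tested.

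Transmitter handling was described by uptake and by receptors. Of 19 tested genes for uptake and breakdown, 16 were higher in astrocytes, 15 by more than 2-fold, and 2 were higher in microglia (median 3.99). Slc1a2, the main glutamate transporter, had 5143, 8050 and 8978 CPM in the lowest, median and highest astrocyte library and 70.0, 154 and 363 CPM in microglia (log2 difference 5.57, standard error 0.323). Slc6a11, a GABA transporter, had 665 to 1316 CPM against 3.53 to 30.4 CPM (6.19), and Slc7a10, which carries serine and alanine, had 194 to 300 CPM against 0.682 to 3.87 CPM (6.92).

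Receptors for transmitters showed the same side for most members. Of 16 tested of 17 genes, 13 were higher in astrocytes, 12 by more than 2-fold, with a median of 3.70. Grin2c, an NMDA receptor subunit, had 347, 513 and 710 CPM in astrocytes and 1.85, 5.79 and 16.5 CPM in microglia (log2 difference 6.44, standard error 0.398). Gabrg1, a subunit of the GABA-A receptor, differed by 6.87 and Grm3, a metabotropic glutamate receptor, by 3.81. Among adrenergic receptors Adrb1 was higher in microglia (-1.03), while the alpha receptors Adra1a, Adra1b and Adra2a were 5.82, 3.58 and 2.79 higher in astrocytes.

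Purine genes were found on both sides. Of 18 tested of 21 genes, 8 were higher in astrocytes and 10 in microglia, 5 and 9 by more than 2-fold. Among all genes tested the shares were 37.4% and 35%, and 18.3% and 13.2% by more than 2-fold. The ADP receptors P2ry12 and P2ry13 were higher in microglia by -3.0 and -3.06, as were P2ry6 (-2.91), P2rx7 (-1.81) and the ectonucleotidase Entpd1 (-2.73), which splits ATP to AMP. Astrocytes were higher for another ectonucleotidase, Entpd2 (6.18), for Nt5e (2.72), which makes adenosine from AMP, and for adenosine kinase Adk (3.05). Among adenosine receptors Adora1 had 111, 130 and 154 CPM in astrocytes and 11.6, 20.3 and 38.5 CPM in microglia (2.70, standard error 0.167), Adora2b differed by 5.54 and Adora2a by 1.29, and Adora3 was higher in microglia (-2.90). The median of the list (-1.38) was -1.83 without mouse 36 and -1.82 without mouse 37.

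For ion channels, pumps and connexins 14 of 22 tested of 23 genes were higher in astrocytes and 4 in microglia, 12 and 3 by more than 2-fold (median 3.15). Kcnj10, the potassium channel that buffers potassium, had 524 to 945 CPM in astrocytes and 44.4 to 146 CPM in microglia (log2 difference 3.36, standard error 0.165). Hvcn1, the voltage-gated proton channel, and Kcnk6 were higher in microglia by -3.04 and -3.0. Kcnk13, a potassium leak channel, had 55.3, 63.2 and 77.4 CPM in astrocytes and 48.6, 68.5 and 72.9 CPM in microglia. Its log2 difference was -0.03 with a 95% interval of -0.26 to 0.20, and its mean CPM in astrocytes was 98.3% of that in microglia, next to 13.2% for Cx3cr1.

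Glucose metabolism differed by isoform. Of 33 genes, 20 were higher in astrocytes and 9 in microglia, 9 and 5 by more than 2-fold (median 0.71). Over all genes tested the shares were 37.4% and 35%, and 18.3% and 13.2% by more than 2-fold. Aldoc, an aldolase, was 5.63 higher in astrocytes and the phosphofructokinases Pfkm and Pfkp 3.55 and 3.17, while Pfkl was higher in microglia (-0.78). Hexokinases followed the same division, with Hk1 at 0.82, Hk2 at -3.01 and Hk3 at -2.95. Hk2 had 18.5, 65.9 and 95 CPM in astrocytes and 381, 441 and 562 CPM in microglia. Glycogen enzymes were higher in astrocytes, and Pygb, a glycogen phosphorylase, had 415 to 621 CPM against 69.5 to 112 CPM (2.54, standard error 0.129), with Pygm at 3.24, Gys1 at 2.01 and the targeting subunit Ppp1r3c at 4.70. Of the lactate carriers Slc16a1 was higher in astrocytes (0.98), where endothelial markers were higher too, and Slc16a3 in microglia (-2.54). The fructose carrier Slc2a5 differed by -3.17.

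Cholesterol synthesis was higher in astrocytes for 18 of 19 genes, all 18 by more than 2-fold, with a median of 2.45, and Ebp was not called (-0.16). Sqle, squalene epoxidase, had 113, 159 and 191 CPM in astrocytes and 3.24, 8.16 and 13.6 CPM in microglia (log2 difference 4.14, standard error 0.201). The transcription factor Srebf2, which turns on the genes of this pathway, differed by 1.97 (standard error 0.107). Oligodendrocytes also make cholesterol, and their markers were 2.32 higher in these astrocyte libraries at the median, so both lists moved the same way. How much of the difference came from either cell was not tested.

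For cholesterol transport 6 of 13 tested of 15 genes were higher on each side, 3 in astrocytes and 2 in microglia by more than 2-fold, shares near those over all genes (18.3% and 13.2%). The median of the list was -0.04, and 0.23 with total counts as the scale. Apoe, the carrier of brain lipoproteins, had 2075, 2305 and 3426 CPM in astrocytes and 623, 1041 and 1515 CPM in microglia (log2 difference 1.39, standard error 0.19). Abca1, which loads cholesterol on Apoe, had 215, 370 and 462 CPM in astrocytes and 688, 921 and 1572 CPM in microglia (-1.47, standard error 0.228). Npc2, a lysosomal cholesterol carrier, was higher in microglia (-1.25). For fatty acids 17 of 24 tested of 26 genes were higher in astrocytes and 4 in microglia, 12 and 2 by more than 2-fold (median 1.32). Scd2, a desaturase abundant in myelinating cells, had 4516 to 6745 CPM against 553 to 1732 CPM (2.76), and the acyl-CoA synthetases Acsbg1 and Acsl6 differed by 6.23 and 5.83. Microglia were higher for Acsl5 (-2.04), the fatty acid receptor Cd36 (-1.84) and the lipid droplet coat Plin2 (-1.01).

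Lysosomal genes were higher in microglia for 23 of 27 members, 19 by more than 2-fold, with a median of -2.09. Ctsd, cathepsin D, had 732, 1178 and 1793 CPM in astrocytes and 5404, 6453 and 8655 CPM in microglia (log2 difference -2.47, standard error 0.181). Ctss differed by -3.07 and Ctsb by -1.66. The membrane protein Lamp1 was not called, with 766 to 1080 CPM against 790 to 1043 CPM and an interval of -0.34 to 0.25. Ctsk was higher in astrocytes (1.77, overlapping groups).

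Complement was higher in microglia for 12 of 16 tested of 21 genes, 11 by more than 2-fold, and higher in astrocytes for 3 (median -2.94). C1qa, a chain of the initiating complex, had 109, 235 and 449.5 CPM in astrocytes and 1649, 1893 and 3050 CPM in microglia (log2 difference -3.10, standard error 0.212). The receptors C3ar1 and C5ar1 differed by -2.89 and -2.98. C4b, which acts just after C1 in the classical pathway, was on the other side with 80.4, 93.0 and 202 CPM in astrocytes and 14.5, 29.0 and 44.1 CPM in microglia (1.87, standard error 0.165). C3 was low in both, at 0.788 ± 0.463 CPM in astrocytes and 8.44 ± 2.36 CPM in microglia (mean ± SD, n = 8).

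Of 25 tested of 27 genes of Toll-like receptors and their adaptors, 21 were higher in microglia, 17 by more than 2-fold, and 3 were higher in astrocytes (median -2.43). Tlr2, a receptor for bacterial lipoproteins, had 11.1, 50.9 and 75.4 CPM in astrocytes and 162, 330 and 468 CPM in microglia (log2 difference -2.92, standard error 0.279). Tlr4, Tlr7 and Tlr9 differed by -2.43, -2.90 and -3.05, and the adaptor Myd88 by -2.33. Tlr3, which senses double-stranded RNA, was slightly higher in astrocytes with 100.2 to 161 CPM against 56.0 to 108 CPM (0.59, standard error 0.119, 8 of 8 mice). Tril, an accessory protein of Tlr3 and Tlr4 signaling, had 523, 625 and 781 CPM in astrocytes and 6.62, 15.4 and 29.5 CPM in microglia (5.26, standard error 0.23). Interferon receptors and nucleic acid sensors were higher in microglia for 17 of 19 genes, 9 by more than 2-fold, and for none in astrocytes (median -1.17). Tmem173, which encodes STING, differed by -3.02 and Ifngr1 by -2.43, whereas Ifnar1 had a difference of -0.12 and was not called.

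All 18 tested of 20 antigen presentation genes were higher in microglia, 17 by more than 2-fold (median -2.36). The class I genes H2-K1 and H2-D1, which share sequence so that reads may be split between them, differed by -2.08 and -2.09, and B2m by -2.28. Among Fc and phagocytic receptors and their signaling, 22 of 27 genes were higher in microglia and 5 in astrocytes, 19 and 5 by more than 2-fold (median -2.83). The microglial side held the Fc receptors Fcgr1, Fcgr3 and Fcer1g (-2.97, -3.04 and -3.07), the adaptor Tyrobp (-3.06) and the kinase Syk (-3.06). The astrocytic side held another set of engulfment genes. Megf10 had 245, 341 and 419 CPM in astrocytes and 13.5, 20.6 and 44.6 CPM in microglia (3.88, standard error 0.151), Axl had 160 to 238 CPM against 28.1 to 78.1 CPM (2.02, standard error 0.141), and Mfge8, Gulp1 and Tyro3 differed by 4.31, 2.81 and 2.56. The TAM receptors Tyro3 and Axl were thus higher in astrocytes and Mertk in microglia (-1.16, standard error 0.166), and their ligands Gas6 (-1.07) and Pros1 (-1.89) were higher in microglia.

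**Figure D4:**
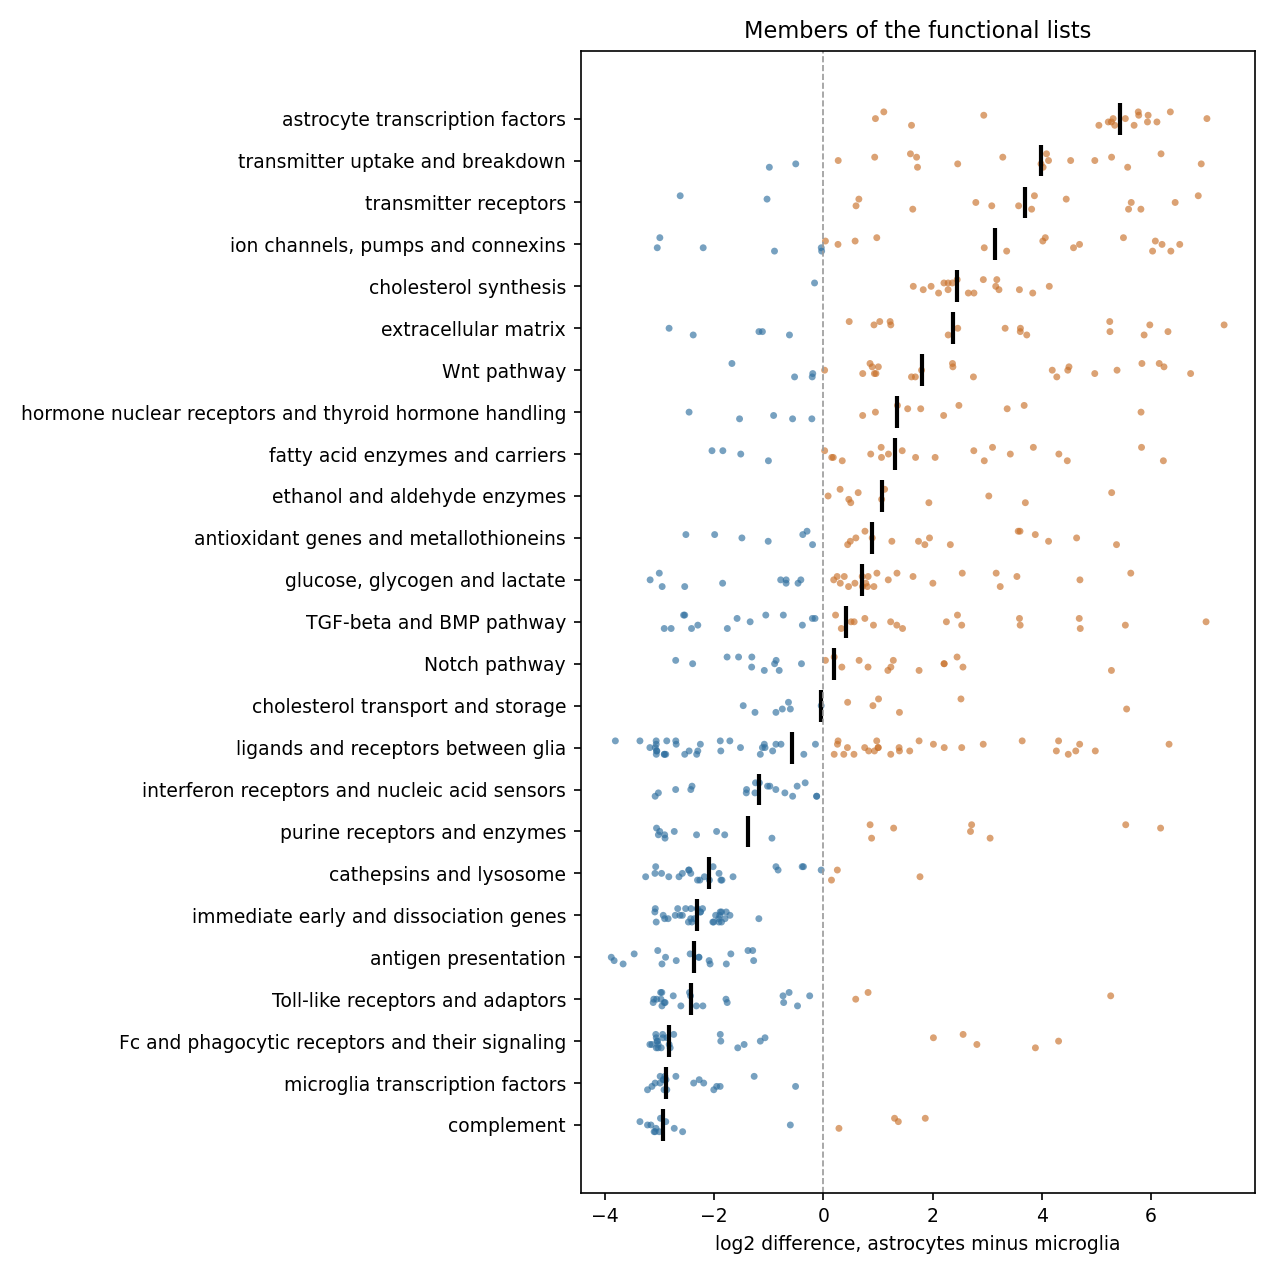
Log2 difference, astrocytes minus microglia, of every tested member of 25 functional lists, sorted by median. Points are genes and black bars are list medians. Medians run from -2.94 for complement to 5.43 for astrocyte transcription factors, and points on the microglia side crowd near -3.

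Developmental pathways were divided by component. In the TGF-beta and BMP pathway 16 of 32 tested of 34 genes were higher in astrocytes and 12 in microglia, 9 on each side by more than 2-fold (median 0.42). The shares over all genes tested were 37.4% and 35%, and 18.3% and 13.2% by more than 2-fold. Tgfb1, the ligand that keeps microglia in their homeostatic state, had 28.1, 63.4 and 120 CPM in astrocytes and 446, 488 and 630 CPM in microglia (log2 difference -2.92, standard error 0.219), and its receptors Tgfbr1 and Tgfbr2 differed by -2.79 and -2.30 and Smad3 by -1.76. Tgfb2 had 42.2, 48.3 and 64.7 CPM in astrocytes and 2.16, 5.46 and 17.5 CPM in microglia (2.53, standard error 0.244), with Tgfb3 at 2.25. Latent ligand handling was split as well, with Ltbp1 (4.69) and Itgb8 (3.59) higher in astrocytes and Nrros (-2.42) in microglia. On the BMP side Bmpr1b had 89.5 to 136 CPM against 0 to 2.42 CPM (7.01, standard error 0.237), and Bmp7 and Id4 differed by 4.71 and 5.53.

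The Notch pathway had 12 of 25 genes higher in astrocytes and 11 in microglia, 6 on each side by more than 2-fold (median 0.20). Over all genes tested 37.4% and 35% were called, 18.3% and 13.2% by more than 2-fold. Targets of the Notch pathway parted. Hes5 had 16.6, 45.5 and 65 CPM in astrocytes and 0, 0.967 and 2.94 CPM in microglia (5.28, standard error 0.265), and Hey1 and Nrarp differed by 2.56 and 2.45. Hes1 was higher in microglia, with 36.8 to 83.6 CPM in astrocytes and 80.0 to 186 CPM in microglia (-1.31, standard error 0.149, higher in 8 of 8 mice with overlapping groups). The ligands Jag1 and Dll1 were higher in astrocytes (2.21 and 1.75), Notch2 in microglia (-1.08), and the coactivators Maml1 and Maml3 in microglia (-1.31 and -2.71).

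Wnt genes were mostly astrocytic, with 22 of 27 tested of 28 higher in astrocytes and 2 in microglia, 16 and 1 by more than 2-fold (median 1.8). Wnt7a had 50.1, 59.3 and 82.4 CPM in astrocytes and 0, 0.45 and 1.94 CPM in microglia (6.73, standard error 0.291), and Wnt7b had 69.0 to 108 CPM against 0.736 to 5.32 CPM (5.38). The receptors Fzd2, Fzd9 and Fzd1 differed by 6.15, 4.97 and 4.50, and Lrp5 was higher in microglia (-1.68). Matrix genes were higher in astrocytes for 17 of 22 tested of 25 members and in microglia for 5, 12 and 2 by more than 2-fold (median 2.37). Bcan, the proteoglycan brevican, had 1237 to 1813 CPM against 10.5 to 63.9 CPM (5.88), and Sparcl1 differed by 3.61 while its relative Sparc had 343 to 679 CPM in astrocytes and 2325 to 3344 CPM in microglia (-2.38, standard error 0.172). For matrix and Wnt genes the higher endothelial, mural and oligodendrocyte markers of the astrocyte libraries stand beside the result and were not tested as a part of it.

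Hormone receptors and thyroid hormone handling had 10 of 15 tested of 17 genes higher in astrocytes and 4 in microglia, 7 and 2 by more than 2-fold (median 1.36). Shares over all genes were 37.4% and 35%, and 18.3% and 13.2% by more than 2-fold. Dio2, which activates thyroid hormone, had 192, 297 and 398 CPM in astrocytes and 1.08, 3.05 and 16.2 CPM in microglia (5.82, standard error 0.338), and the receptors Thrb and Thra differed by 3.68 and 1.78. The glucocorticoid receptor Nr3c1 was not called (-0.21), and Rxra was higher in microglia (-1.54). Of 11 tested of 14 ethanol and aldehyde enzymes, 10 were higher in astrocytes, 4 by more than 2-fold, and none in microglia (median 1.07). Aldh2, which clears acetaldehyde, had 159 to 255 CPM in astrocytes and 64.0 to 111 CPM in microglia (1.07, standard error 0.136), and catalase, Cat, differed by 0.64. Antioxidant genes were higher in astrocytes for 16 of 23 tested of 24 members and in microglia for 5, 11 and 3 by more than 2-fold (median 0.89). The metallothionein Mt1 had 167 to 477 CPM against 33.5 to 114 CPM (2.33) and Mt3 differed by 4.64, while heme oxygenase Hmox1 had 19 to 68.7 CPM in astrocytes and 116 to 334 CPM in microglia (-2.52) and the regulator Nfe2l2 differed by -1.49.

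Immediate early and dissociation genes were higher in microglia for 33 of 33 members, 32 by more than 2-fold, with a median of -2.31. Fos had 481, 921 and 1220 CPM in astrocytes and 2798, 3456 and 4562 CPM in microglia (log2 difference -2.03, standard error 0.186). Egr1 differed by -2.43, Jun by -2.25, Atf3 by -2.71 and the heat shock gene Dnajb1 by -1.87, and the cytokines Tnf, Il1b and Ccl4 by -3.06, -3.08 and -3.09. Nr4a1 had the smallest difference (-1.18, 149 to 334 against 319 to 720 CPM) and did not pass the test of 2-fold. The median was -2.14 in the CIE mice. Microglia were taken after astrocytes from the same suspension, so time in suspension and cell type cannot be told apart here.

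Transcription factors of each lineage followed the cell. All 18 astrocyte factors were higher in astrocytes, 16 by more than 2-fold (median 5.43), and all 20 tested of 21 microglia factors were higher in microglia, 19 by more than 2-fold (median -2.88). Sox9 had 192, 222 and 237 CPM in astrocytes and 0.736, 3.72 and 11.2 CPM in microglia (5.69, standard error 0.289). Spi1, which encodes the myeloid factor PU.1, had 11.4, 34.8 and 73.6 CPM in astrocytes and 293, 311 and 527 CPM in microglia (-3.22, standard error 0.215). Nfia and Nfix, factors shared with other neural lineages, differed least among the astrocyte factors (0.95 and 1.11), and Bhlhe41 least among the microglia factors (-0.51). Per kilobase of exon, Sox2 had the highest astrocyte level of the astrocyte factors (76.8 CPM per kb) and Cebpa the highest microglia level of the microglia factors (356 CPM per kb).

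Promoters were searched for short motifs bound by such factors, in the 250 bases upstream of the RefSeq start (GRCm38.p6), on both strands. GAGGAAG, the core bound by PU.1, was in 17% of 1225 promoters of genes more than 2-fold higher in microglia, in 9.5% of 1624 promoters of genes more than 2-fold higher in astrocytes and in 10.7% of all 9252 promoters of genes tested. The RUNX motif TGTGGT was in 11.8%, 10.3% and 10.4% in the same order, the SOX motif ACAAAG in 12.7%, 13.3% and 11.7%, the NFI motif TTGGCA in 8.8%, 10.8% and 9.6%, the RFX motif GTTGCCA in 2.2%, 2.9% and 3.1% and the C/EBP motif TTGCGCAA in 0.4%, 0.1% and 0.3%. Mean GC content was 59%, 61.4% and 60.5%. These shares describe letters in a window, and no test was made.

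Of the 36 marker and furthest genes, 25 had a promoter in the table and 13 held a motif. The 150 bases before the start are shown for 3 of the markers and antigens and for 2 of the furthest microglia genes, on the strand of the gene, 5′ to 3′, with motifs in capitals. In Itgam (chr7:128062490-128062639, plus strand) the PU.1 core begins 84 bases before the start, in Cx3cr1 (chr9:120068297-120068446, minus strand) the RUNX motif lies on the reverse strand from base 54, and in Gp9 (chr6:87777920-87778069, plus strand) the PU.1 core lies on the reverse strand from base 16. In H2-Aa (chr17:34287824-34287973, minus strand) a SOX motif begins at base 97 and an RFX motif lies on the reverse strand from base 83. Gja1 (chr10:56377150-56377299, plus strand), an astrocyte gene, also holds the PU.1 core, on the reverse strand from base 57.
Itgam: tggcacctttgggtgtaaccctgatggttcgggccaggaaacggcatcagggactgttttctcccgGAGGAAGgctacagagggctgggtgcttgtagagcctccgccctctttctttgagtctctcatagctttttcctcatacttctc
Cx3cr1: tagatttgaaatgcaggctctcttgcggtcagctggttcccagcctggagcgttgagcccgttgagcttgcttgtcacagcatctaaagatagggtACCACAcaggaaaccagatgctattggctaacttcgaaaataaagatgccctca
Gp9: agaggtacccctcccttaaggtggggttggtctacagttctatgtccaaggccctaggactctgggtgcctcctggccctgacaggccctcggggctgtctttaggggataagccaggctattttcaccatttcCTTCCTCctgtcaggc
H2-Aa: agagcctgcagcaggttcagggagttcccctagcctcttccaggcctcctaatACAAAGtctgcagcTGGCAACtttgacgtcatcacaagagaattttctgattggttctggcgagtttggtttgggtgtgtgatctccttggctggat
Gja1: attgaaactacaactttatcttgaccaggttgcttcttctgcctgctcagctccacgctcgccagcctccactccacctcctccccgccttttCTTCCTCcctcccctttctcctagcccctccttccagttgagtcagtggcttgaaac

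Ligands and receptors were set side by side as 37 pairs, of which 29 had both genes tested. In 10 pairs the ligand was higher in astrocytes and the receptor in microglia, and in 8 pairs the reverse. In 6 pairs both were higher in microglia and in 1 pair both in astrocytes. Of all genes tested, 37.4% were higher in astrocytes and 35% in microglia. Whether these arrangements were more frequent than in other pairs of genes was not tested. Il33 had 287, 351 and 460 CPM in astrocytes and 31.3, 40.2 and 84.2 CPM in microglia (2.93, standard error 0.168), and its receptor Il1rl1 was higher in microglia (-2.70). The ligands of Csf1r differed from each other. Il34 had 8.71 to 17.5 CPM in astrocytes and 0.736 to 12.1 CPM in microglia (1.01, standard error 0.278, 8 of 8 mice), and Csf1 had 118 to 168 CPM against 108 to 260 CPM (-0.36, standard error 0.126, adjusted p = 0.0203). The call for Csf1 was lost in 6 alternatives, which were the fits without mouse 36 (adjusted p = 0.0671) and without mouse 37 (adjusted p = 0.0542), total counts (adjusted p = 0.587) or the upper quartile (adjusted p = 0.0642) as the scale, no expression filter (adjusted p = 0.0507) and at least 10 counts in every library (adjusted p = 0.377). Cx3cl1, the ligand of Cx3cr1 that neurons make, was not called (0.26), and without mouse 22 it was higher in astrocytes (0.48, adjusted p = 0.0115). In the opposite direction Il1a had 543 to 1126 CPM in microglia and 47.3 to 228 CPM in astrocytes (-3.06), with its receptor Il1r1 higher in astrocytes (0.83), and the same arrangement held for Osm and Osmr (-2.87 and 1.23), Grn and Sort1 (-2.46 and 0.76), Sema4d and Plxnb1 (-0.78 and 3.64) and Pdgfb and Pdgfrb (-2.32 and 1.58). Pdgfrb is also a mural cell marker, and mural markers were higher in astrocyte libraries for 9 of 9 genes. The medians of mural and endothelial markers (1.04 and 0.84) were close to the differences of Osmr and Il1r1. The part of mural and endothelial cells in these pairs was not tested.

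**Figure D5:**
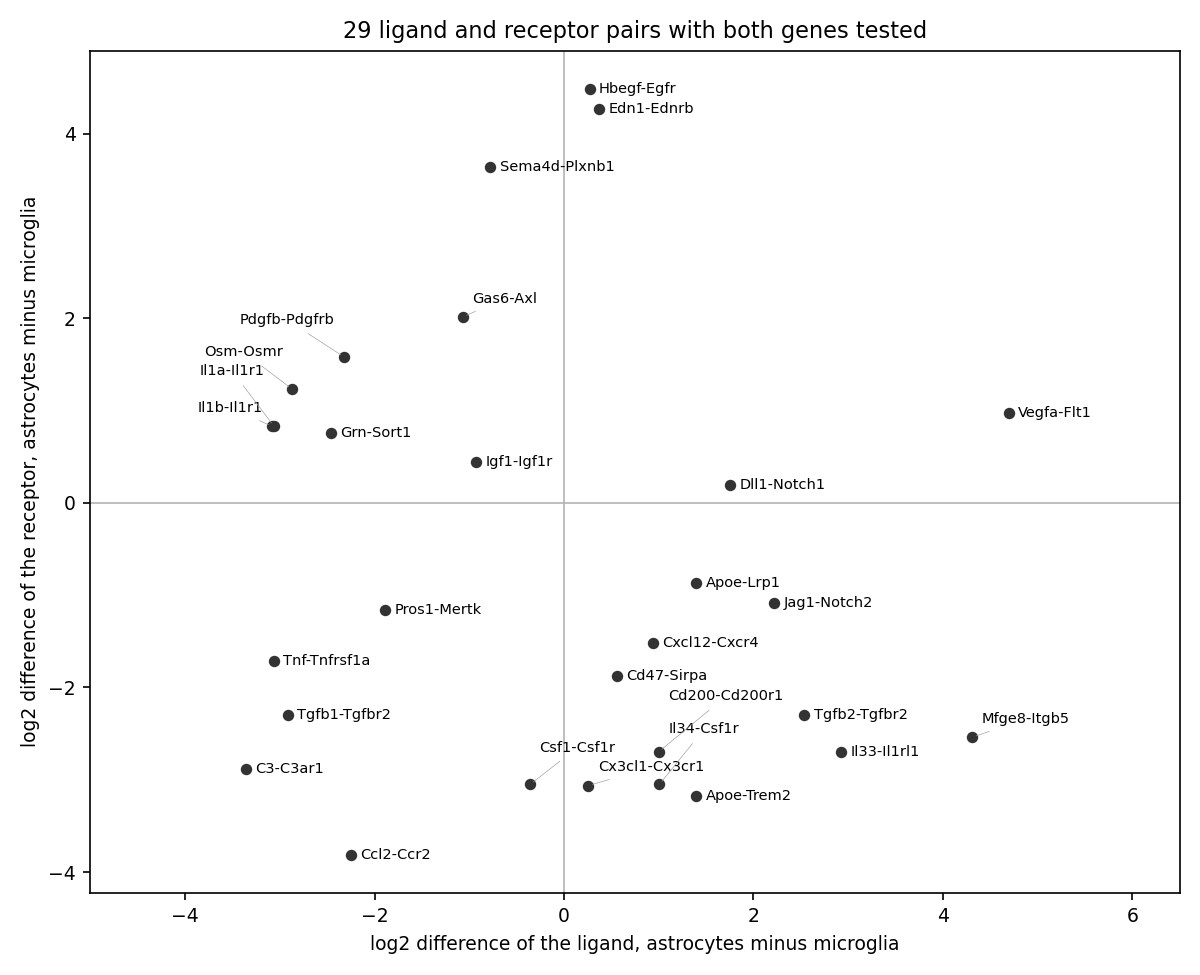
Log2 difference of the ligand (x axis) and of its receptor (y axis), astrocytes minus microglia, for 29 pairs with both genes tested. Lower right are pairs with the ligand higher in astrocyte and the receptor higher in microglia libraries, such as Il33 and Il1rl1 (2.93 and -2.70). Upper left is the reverse, such as Osm and Osmr (-2.87 and 1.23).

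The contrast was measured again in the CIE mice, which share no library with the control comparison. There 2002 of 12240 genes were more than 2-fold higher in astrocytes (16.4%) and 1455 more than 2-fold higher in microglia (11.9%). Of the 2209 control genes higher in astrocytes by more than 2-fold, 2169 were tested in CIE mice, 2167 had the same direction and 1863 passed the test of 2-fold, which is 84.3% of the control list and 93.1% of the CIE list. Of the 1586 genes higher in microglia, 1564 were tested, 1564 had the same direction and 1300 passed, 82% of the control and 89.3% of the CIE list. Homeostatic microglia genes had a median of -2.51 in CIE mice and -3.06 in control mice, and mature astrocyte genes 5.02 and 5.42. An interaction test called 38 of 12775 genes (0.297%) as differing in the contrast itself, 33 without mouse 22. Among the genes described above, the difference of Hes5 was 5.28 in control and 2.15 in CIE mice, that of H2-Eb1 was -3.89 and -2.16, and that of H2-Ab1 was -3.83 and -2.25.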

How the data were processed

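RNA-seq counts were analysed for astrocytes and microglia held on beads from the prefrontal cortex of control mice. The authors demultiplexed reads with bcl2fastq 2.17, trimmed them with cutadapt 1.8, used STAR 2.5.0a for alignment (mm10) and Picard 1.141 to drop duplicates, and obtained gene counts from HTSeq 0.6.1p1. They deposited raw counts per library, without normalization. The annotation release and the strand setting are not given in the sources used here. The 5 summary lines of each library were left out of library sizes. Reads without a feature, ambiguous or not uniquely aligned made up 23.2% to 67.1% of their sum with the gene counts. The authors left out some microglia samples and outliers, which are not analysed here.

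The quasi-likelihood F test of edgeR 4.0.16 (R 4.3.3) was run on the counts with mouse as a block, after filterByExpr by preparation and scaling by TMM, and glmTreat was used for a difference above 2-fold, with Benjamini-Hochberg adjustment over 12057 genes and a threshold of 0.05. Log2 differences are astrocytes minus microglia. CPM are counts per 1000000 of the TMM-scaled library size. The same fit was made in CIE mice, and the interaction in both. Libraries of a mouse come from the same animal, so the design is paired. The correlations of their deviations from the group means ran from -0.277 to 0.29, above 0.1 in 3 of 8 mice. No library was a duplicate of another. The procedure was run on simulated data in which most genes did not differ. In the real data most genes differed, so the simulation does not test the scaling or the call counts given here. Alternatives were DESeq2 1.42.0, other scalings and filters, no replicate block, homogenate libraries in the fit and each mouse left out. Named were the 15 largest differences in each direction among genes past the test of 2-fold with at least 10 CPM in the higher preparation, the 10 genes of smallest p for the interaction, and members of the lists. Some genes that met this rule are not reported here. Members, lists and motifs were chosen with earlier results of these data known. Of 24421 gene symbols, 24026 matched the GRCm38 annotation. Mice are separate animals, and intervals on pooled counts cover counting error only.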

Additional observations from a re-analysis of the deposited data

Results flagged for a closer look

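In 140 groups of 8 libraries, 12 had a highest or lowest library far from the others by Dixon's test at its 95% critical value, and chance alone gives about 1 in 20 groups. In microglia of mouse 19 the values were 438 CPM for Cd74 (next 257), 126.5 CPM for H2-Ab1 (next 81.1), 3050 CPM for C1qa (next 2193), 527 CPM for Spi1 (next 345) and 114 CPM for Mt1 (next 63.4). In microglia of mouse 22, the shallowest library, they were 5833 CPM for Cx3cr1 (next 4535), 1732 CPM for Scd2 (next 1093), 3344 CPM for Sparc (next 2711) and 6.868e+04 CPM for the sum of homeostatic microglia genes (next 5.647e+04). In astrocytes Ltf reached 0.776 CPM in mouse 36 (next 0.357), H2-Eb1 8.40 CPM in mouse 19 (next 4.22) and C4b 202 CPM in mouse 37 (next 110). The microglia library of mouse 19 also had the highest summed monocyte, neutrophil and lymphocyte markers.

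The difference between astrocytes and microglia itself changed between control and CIE mice for 38 genes by the interaction test of edgeR, 13 upward and 25 downward. Among the 10 of smallest p, the change (CIE minus control, log2) was -1.06 for Ddit4 (standard error 0.132, adjusted p = 0.000868), with differences of 1.35 in control and 0.30 in CIE mice. It was 1.72 for H2-Eb1 (standard error 0.249, adjusted p = 0.00509), 1.57 for H2-Ab1 and -3.13 for Hes5 (standard error 0.577, adjusted p = 0.0281). It was -1.16 for Mmp14, -1.23 for Sned1, -1.01 for Gramd3, -1.56 for Zfhx2os, -1.28 for Col11a2 and -0.738 for Ankrd28.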

How the results depend on the processing

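With at least 10 counts required in every library, which left fewer genes to test, 5585 genes differed (2829 higher in astrocytes and 2756 in microglia) and 1802 by more than 2-fold (864 and 938), so that more of these were higher in microglia, where 2209 against 1586 had been higher in astrocytes. In place of the paired fit, a fit with no replicate block called 8968 genes against 8737 and 3805 against 3795 by more than 2-fold. DESeq2 with the replicate block called 8733 and 3284, and the fit with homogenate libraries and the replicate block 9742 and 4205. With total counts as the scale, 64.7% of the calls were higher in astrocytes against 51.7% (for more than 2-fold 67.8% against 58.2%). Leaving out each mouse in turn gave 8167 to 8756 genes (4210 to 4486 higher in astrocytes, 3919 to 4341 in microglia) and 3589 to 3847 by more than 2-fold (2081 to 2226 and 1472 to 1643). Of 665 tested members, 36 lost and 29 gained a call under at least 1 alternative. Of 444 list medians recomputed, 8 moved by more than their spread over mice, 6 of them with total counts as the scale, and 4 changed sign. All 4 were of cholesterol transport, whose median of -0.04 became 0.23 with total counts and 0.05 with the upper quartile as the scale, 0.02 without mouse 36 and 0.09 without mouse 37. No called member changed direction. The interaction without mouse 22, chosen after seeing the data, called 33 genes. Depth limits genes near 1 count per library, above all in microglia.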
